A study of Mus musculus with 32 samples.

Results

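The genes of the CSF1 receptor axis were followed in brain tissue and in sorted subdural CNS-associated macrophages (sdCAMs) after stroke. They comprised Csf1r, its ligands Csf1 and Il34, the cytokine receptor chain genes Csf2ra, Csf2rb and Csf2rb2, and the G-CSF gene Csf3. These 7 genes, of 33280 in each count table, were taken by name and not by their values. All 8 mice were wild-type C57BL/6JCrl of both sexes, and 4 of them (A2, A3, A4 and B1) received vehicle, hydroxypropyl-β-cyclodextrin, by gavage (CTL). The other 4 (C2, C3, C4 and D1) received BLZ945, a brain-penetrant inhibitor of the CSF1R kinase, at 200 mg/kg for 7 days. At 8 weeks after treatment, when the depleted macrophages had had time to repopulate, every mouse underwent an ischemic stroke by injection of thrombin into the middle cerebral artery. One day (day 1) later, the stroke-bearing (ipsi) and the opposite (contra) hemisphere of each mouse gave 1 library of whole tissue and 1 of sdCAMs. All groups therefore carried the stroke, and no library came from a mouse without surgery. The choroid plexus was dissected away, and sdCAMs were then sorted as CD45+CD11b+CD206+ cells that lacked Ly6C, Ly6G and CD11c.

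CSF1R is a receptor tyrosine kinase of the mononuclear phagocyte lineage, and microglia and border macrophages need its signal to survive, which is why its inhibition depletes them. Its ligands are CSF1, made in the brain by glial and vascular cells among others, and IL-34, which in the forebrain is made largely by neurons. The receptor for GM-CSF, a cytokine of inflamed tissue, pairs the specific α chain encoded by Csf2ra with the β chain encoded by Csf2rb, which also serves IL-3 and IL-5. Mice carry a close relative of that β chain, Csf2rb2, which serves IL-3 alone. Csf3 encodes G-CSF, the growth factor of neutrophils, which acts through a receptor of its own.

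The sequences upstream of the start sites are shown for every member with a RefSeq promoter at hand, which held for 3 of the 7. They were not chosen by their values. Each is given as the 250 bases before the start site, 5′ to 3′ on the strand of the gene, in the coordinates of build GRCm38.p6. Capitals mark matches on either strand to GAGGAA, the core bound by the macrophage factor PU.1 and other ETS proteins, to the AP-1 motif TGANTCA and to the NF-κB motif, GGGA and TTTCC with any base between them. No match overlapped another.
Csf1, chr3:107760470-107760719, minus strand: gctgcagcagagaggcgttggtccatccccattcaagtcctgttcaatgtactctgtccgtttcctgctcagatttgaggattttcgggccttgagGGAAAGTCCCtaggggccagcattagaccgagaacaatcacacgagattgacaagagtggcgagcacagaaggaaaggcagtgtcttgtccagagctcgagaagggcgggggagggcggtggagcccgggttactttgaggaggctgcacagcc
Csf2ra, chr19:61228419-61228668, minus strand: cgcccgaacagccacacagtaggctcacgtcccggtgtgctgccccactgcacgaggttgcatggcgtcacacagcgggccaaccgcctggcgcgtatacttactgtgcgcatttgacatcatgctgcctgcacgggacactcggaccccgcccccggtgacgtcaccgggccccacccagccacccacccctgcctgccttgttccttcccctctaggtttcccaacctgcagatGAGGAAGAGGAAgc
Csf2rb2, chr15:78305722-78305971, minus strand: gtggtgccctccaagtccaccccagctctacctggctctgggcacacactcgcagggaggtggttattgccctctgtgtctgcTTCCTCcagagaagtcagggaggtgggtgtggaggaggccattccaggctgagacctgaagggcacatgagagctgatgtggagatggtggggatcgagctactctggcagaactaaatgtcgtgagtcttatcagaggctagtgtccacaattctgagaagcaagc
The Csf1 window held 1 NF-κB match, which 0.356% of 32851 promoter windows of this length held. The Csf2ra window held 2 GAGGAA matches and the Csf2rb2 window 1, against 23.3% of all windows with at least 1. No window of the 3 held the AP-1 motif, which 6.75% of all windows held. A match describes letters only.

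Both tables held raw counts. Tissue libraries totalled 9288717 to 12781505 counts and sdCAM libraries 7397393 to 11081409. A floor of 3 counts therefore came to at most 0.323 CPM (counts scaled to library size) in tissue and 0.406 CPM in sdCAMs, which covers counting error only. CPM values were further scaled by trimmed mean of M values (TMM). The ipsi sdCAM libraries of A3 and C2, labelled as degraded RNA, held 54055 and 55155 counts and were left out, leaving 16 tissue and 14 sdCAM libraries. For the tissue of A3, sample labels and count table name the hemispheres oppositely. Labels were followed. With the table's assignment the values of A3 change sides, A3 becomes the exception to each statement below on all 8 mice or all 4 CTL mice in tissue, and edgeR called 1 gene on average of treatments, 0 in CTL and 6 in BLZ945 tissue, none of them a member. In sdCAM libraries the defining markers Mrc1, Pf4 and others on a 10-gene list summed to between 1658 and 10470 CPM against 21.4 to 44.1 CPM in tissue. Microglia markers summed to between 7754 and 29770 CPM in the same sorted libraries, above the sdCAM markers in each of the 14. A value given below for sdCAMs is that of the sorted library. The part of microglia transcripts in it was not tested. Choroid plexus markers took 2.14% and 3.94% of the counts in the contra sdCAM libraries of C3 and C4 and under 1% in the other 12. In tissue these markers summed to between 6.38 CPM in contra C3 and 4312 CPM in ipsi C2. The hemispheres of D1 differed, at 50.5 CPM in ipsi and 2903 CPM in contra. The part of choroid plexus in the tissue values was not tested.

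Per length of exon, Csf1r was the highest of the 7 members in sdCAMs, with group means between 538 and 1255 CPM per kb, and ranked 12 by mean CPM among all genes there. In tissue Il34 and Csf1r led, at group means of 23.3 to 25.8 and of 18.5 to 20.1 CPM per kb. Over the 16 tissue libraries Il34 spanned 17.8 to 33.6 and Csf1r 17.6 to 21.6 CPM per kb, so that the order of these neighbours did not hold beyond their spread. Csf1 followed in tissue at 5.21 to 9.13 CPM per kb, level with Csf2ra at 6.06 to 7.54. Csf2rb and Csf2rb2 stayed below 1 CPM per kb in every tissue group. In sdCAMs Csf2ra came next in every group, at means of 23.8 to 67.3, followed by Csf1 at 9.69 to 27.4 and Csf2rb at 10.8 to 20.3, whose ranges overlapped. Csf2rb2 stood at 5.32 to 12.7 and Il34 at 1.22 to 8.04 CPM per kb. Il34 was level with Csf2rb2 in contra sdCAMs and below it in ipsi.

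**Figure D1:**
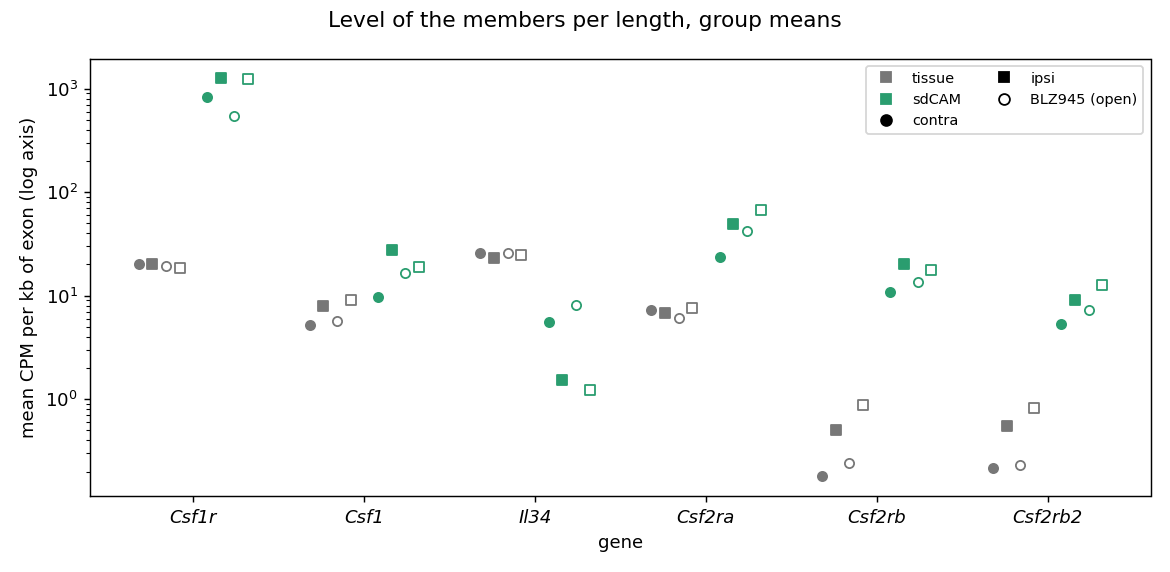
Mean level of 6 members per kb of exon (log axis, CPM per kb) in tissue (grey) and sdCAMs (green), with contra as circles, ipsi as squares, CTL filled and BLZ945 open (3 or 4 mice per group). Csf1r, Csf2ra, Csf2rb and Csf2rb2 lie higher in sdCAMs than in tissue, and Il34 lies lower.

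The members differed sharply between sorted sdCAMs and whole tissue. The 2 materials also differed in RNA input and library preparation, which cannot be told apart from the sorting. In a joint fit of all 30 libraries, Csf1r was 31.2-fold higher in contra sdCAMs than in contra tissue (log2 fold change 4.96 ± 0.18 SE, edgeR adjusted p = 1.06e-18) and 56.8-fold higher in ipsi sdCAMs (5.83 ± 0.19, adjusted p = 1.68e-19). The β chain Csf2rb was 53.2-fold higher in contra (5.73 ± 0.30, adjusted p = 2.16e-15) and 25.1-fold higher in ipsi sdCAMs (4.65 ± 0.28, adjusted p = 5.54e-14). Csf2rb2 differed by 4.68 ± 0.44 in contra and 3.83 ± 0.42 in ipsi, and Csf2ra by 2.14 ± 0.16 and 2.83 ± 0.17, all in log2 units and all called. Csf1 was higher in sdCAMs by 1.09 ± 0.29 (adjusted p = 0.00138) and 1.25 ± 0.30 (adjusted p = 0.000643). Il34 was the one member lower in sdCAMs, by log2 fold changes of -2.06 ± 0.49 (adjusted p = 0.00053) and -4.33 ± 0.63 (adjusted p = 7.5e-07). In contra 72.5% of 19389 genes were called (33.2% higher and 39.4% lower) and in ipsi 74.2% (27.8% higher and 46.3% lower), so a call by itself set no member apart. The median of all genes was -0.15 in contra with TMM, 0.05 with library size alone and -0.37 with DESeq2 size factors. In ipsi it was -0.75, -0.69 and -0.91, opposite in sign to the difference of Csf1 and of the same sign as that of Il34. The size of each fold is to be read beside this offset of all genes. Csf3 was called higher in contra too, from 4, 7 and 5 counts in the libraries of A3, B1 and C2, and no fold is given for it. Its call was lost without A3 (adjusted p = 0.054), B1 (0.0751) or C2 (1), with DESeq2 (0.273), with the mouse as a block (0.0703) and with the table's hemispheres for A3 (0.0644). In bulk RNA, fewer cells of a type and less RNA per cell cannot be told apart, here and in all that follows.

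Csf1r, the target of BLZ945, was steady in tissue. In CTL mice A2, A3, A4 and B1 it stood at 117, 118, 121 and 106 CPM in contra and at 106, 124, 124 and 110 CPM in ipsi tissue. In BLZ945 mice C2, C3, C4 and D1 it stood at 107, 125, 118 and 102 CPM in contra and at 108.5, 103, 103 and 113 CPM in ipsi. All 16 values lay between 102 and 125 CPM, the 4 groups overlapped, and 5 of 8 mice had the higher value in ipsi. The hemispheres differed by 0.01 ± 0.08 in CTL, -0.08 ± 0.08 in BLZ945 and -0.04 ± 0.05 on average (log2 fold change ± SE, adjusted p = 0.859 for the average). Treatment differed by -0.03 ± 0.08 in contra (adjusted p = 1) and -0.12 ± 0.08 in ipsi tissue (adjusted p = 0.958). Of the 8 BLZ945 values, C3 and D1 in contra and C3 and C4 in ipsi lay outside the CTL range of their hemisphere, on either side in contra and below it in ipsi.

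**Figure D2:**
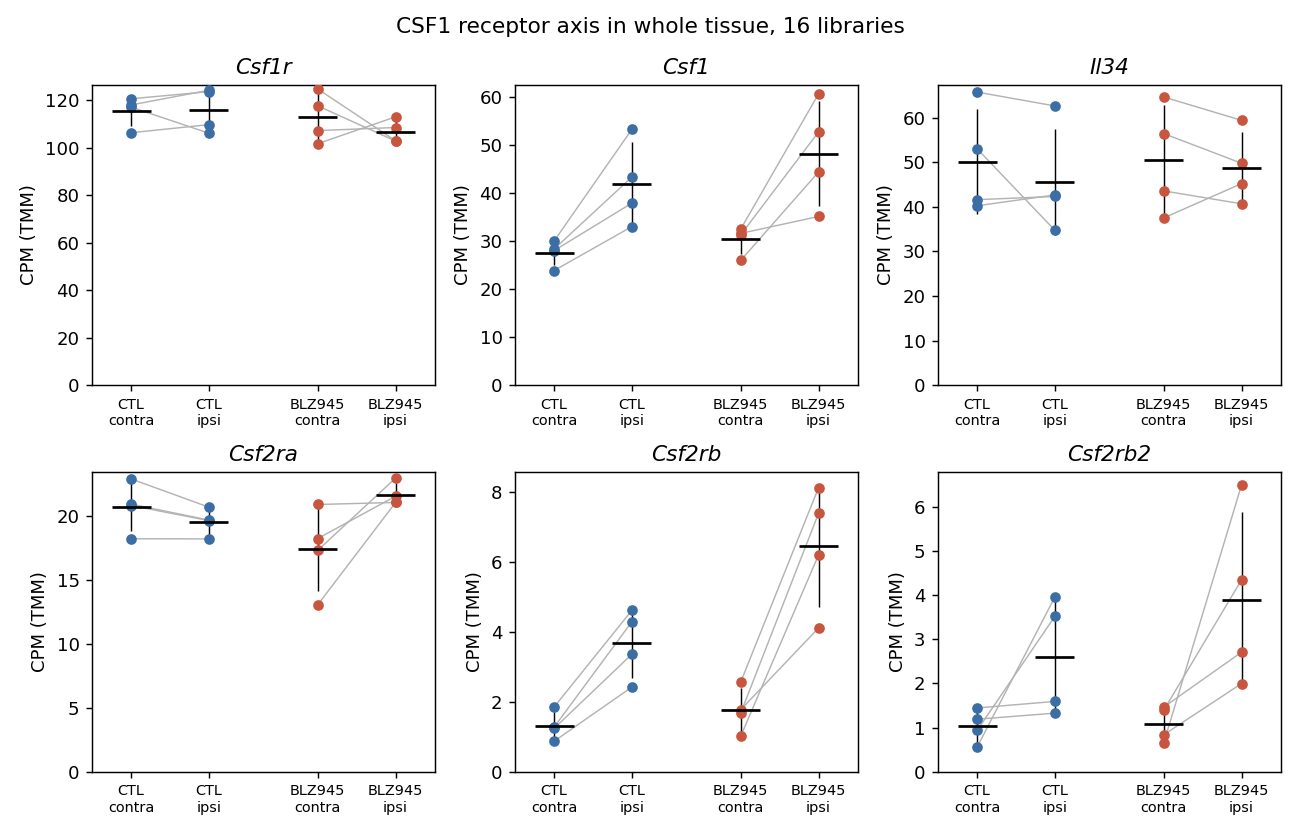
CPM of 6 members in the 16 tissue libraries (4 mice per group), with 1 point per library, lines joining the hemispheres of a mouse, black bars for the mean and thin lines for the SD. Csf1, Csf2rb and Csf2rb2 rise from contra to ipsi in all 8 mice, while Csf1r stays between 102 and 125 CPM.

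In sdCAMs Csf1r was higher on the side of the stroke. Contra levels were 5577, 3189, 4319 and 6177 CPM in CTL mice A2, A3, A4 and B1, and ipsi levels were 5646, 8688 and 7400 CPM in A2, A4 and B1. In BLZ945 mice, contra levels were 2711, 3748, 1682 and 4283 CPM in C2, C3, C4 and D1, and ipsi levels were 7848, 6632 and 6767 CPM in C3, C4 and D1. All 6 mice with both hemispheres had more Csf1r in ipsi, from 1.01-fold in A2 to 3.94-fold in C4, and the groups overlapped in CTL but not in BLZ945 mice, as 7.44% of 18297 genes did in that direction. Averaged over treatments the difference was 0.89 ± 0.21 (1.85-fold, adjusted p = 0.00927). It was called in BLZ945 mice (1.19 ± 0.29, adjusted p = 0.0285) and not in CTL mice (0.59 ± 0.29, adjusted p = 0.299), while the interaction that compares both responses was 0.60 ± 0.42 (adjusted p = 1). The call in BLZ945 mice was lost without C2 (adjusted p = 0.0728), C3 (0.115) or C4 (0.111), and without both contra libraries rich in choroid plexus markers (1.03, adjusted p = 0.116). In the averaged comparison 16.2% of all genes were called, 4.98% higher and 11.2% lower, and Csf1r and Csf2ra were the members called. With the degraded libraries included, neither was called (Csf1r 0.51, adjusted p = 0.788).

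Other cell types moved with the hemisphere in the sorted libraries. All 5 endothelial markers were called lower in ipsi, with sums of 461 to 1242 CPM in contra and 22.7 to 99.95 CPM in ipsi libraries. All 5 oligodendrocyte markers (475 to 5624 against 212 to 612 CPM), 5 of 6 astrocyte markers (322 to 2104 against 172 to 833 CPM), 3 of 5 choroid plexus markers (24.6 to 37590 against 0.502 to 1511 CPM), 2 of 3 measured red blood cell markers (73.1 to 1159 against 7.1 to 150.0 CPM), 2 of 6 fibroblast and mural markers (158 to 759 against 37.9 to 459 CPM) and 1 of 7 neuron markers (24.6 to 203 against 0.628 to 48.9 CPM) fell as well. Of neutrophil markers (87.4 to 2919 against 104 to 846 CPM), monocyte markers (223 to 1382 against 211 to 664 CPM) and T and NK cell markers (78.7 to 270.0 against 54.6 to 197 CPM), none were called. Neutrophil markers reached 1845, 2919 and 2334 CPM in contra C2, C4 and D1. Among macrophage lists, 13 of 15 pan-macrophage genes, 8 of 10 sdCAM markers and 2 of 8 measured microglia markers were called higher in ipsi. The part of these cells in the member differences was not tested. Without the contra libraries of C3 and C4, the averaged difference of Csf1r was 0.81 ± 0.19 (adjusted p = 0.0174) and that of Csf2ra 0.68 ± 0.16 (adjusted p = 0.0194).

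**Figure D3:**
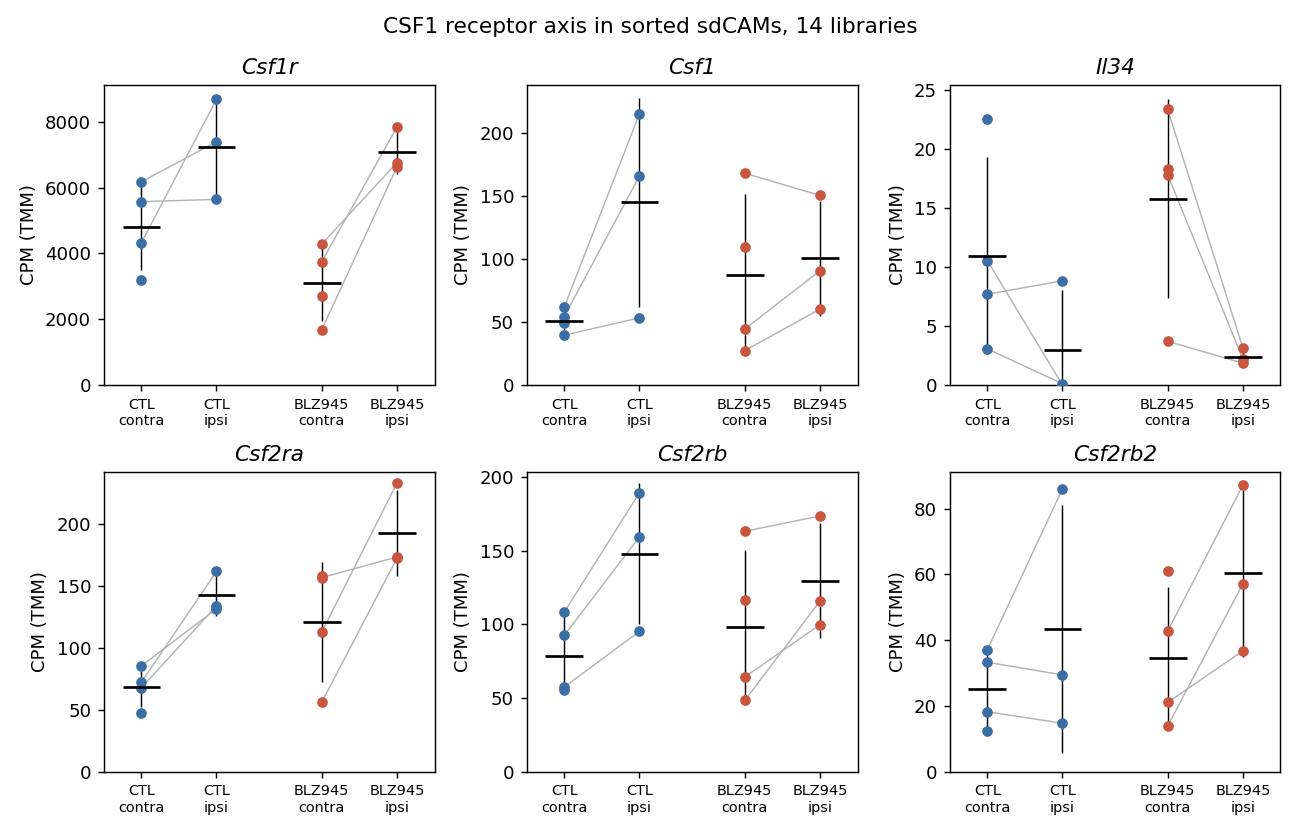
CPM of 6 members in the 14 sdCAM libraries (4 contra and 3 ipsi per treatment), drawn as for tissue: 1 point per library, lines within a mouse, bars for mean and SD. Csf1r and Csf2ra are higher in ipsi in all 6 mice with both hemispheres, and Il34 is at most 8.82 CPM in any ipsi library.

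To set Csf1r against the macrophage content of each library, its counts were divided by the summed counts of 15 other pan-macrophage genes, such as C1qa, Ctss and Cx3cr1. In tissue this share was 25.7%, 26.5%, 25.6% and 25.4% in contra and 21.8%, 20.3%, 22.7% and 20.4% in ipsi of CTL mice A2, A3, A4 and B1. In BLZ945 mice C2, C3, C4 and D1 it was 19.8%, 23.3%, 24.7% and 21.7% in contra and 16.3%, 17.4%, 18.8% and 18.1% in ipsi. The share was lower in ipsi in all 8 mice (mean log2 difference -0.31 ± 0.09 SD, exact sign-flip test, p = 0.00781, the smallest that 8 mice allow, adjusted p = 0.0469 over 6 tests). BLZ945 values did not overlap CTL values in either hemisphere, by -0.21 in contra and -0.27 in ipsi on the log2 scale (exact permutation test, two-sided, p = 0.0286 for each, the smallest that 4 against 4 allow). Adjusted over the 6 tests both came to p = 0.0571 (exact permutation test) and did not pass. Csf1r itself was steady and the summed genes were not, with 8 of the 15 called higher in ipsi tissue on average of treatments and sums of 419 to 471 CPM in CTL contra, 468 to 543 in BLZ945 contra, 488 to 612 in CTL ipsi and 547 to 666 in BLZ945 ipsi.

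The share depended on the genes chosen. Relative to 8 measured microglia genes, Csf1r was higher in BLZ945 than in CTL tissue by 0.09 in contra (exact permutation test, p = 0.857) and 0.11 in ipsi (p = 0.686), and the ipsi against contra difference was -0.09 (p = 0.516). With the table's hemispheres for A3, the ipsi against contra difference relative to the pan-macrophage genes was -0.21 (exact sign-flip test, p = 0.0547) and the BLZ945 against CTL difference in contra -0.11 (exact permutation test, p = 0.286). In sdCAMs the share was between 10.1% and 19.9% in all 14 libraries, the hemispheres differed by 0.13 ± 0.24 SD over 6 mice (exact sign-flip test, p = 0.188, adjusted 0.281), with 5 mice higher in ipsi. Treatment differed by -0.26 in contra (exact permutation test, p = 0.257) and -0.04 in ipsi sdCAMs (p = 0.9, where 3 against 3 cannot go below 0.1). Thus Csf1r and the pan-macrophage genes were higher together in ipsi sdCAMs, and the share differed by less than its spread over mice.

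**Figure D4:**
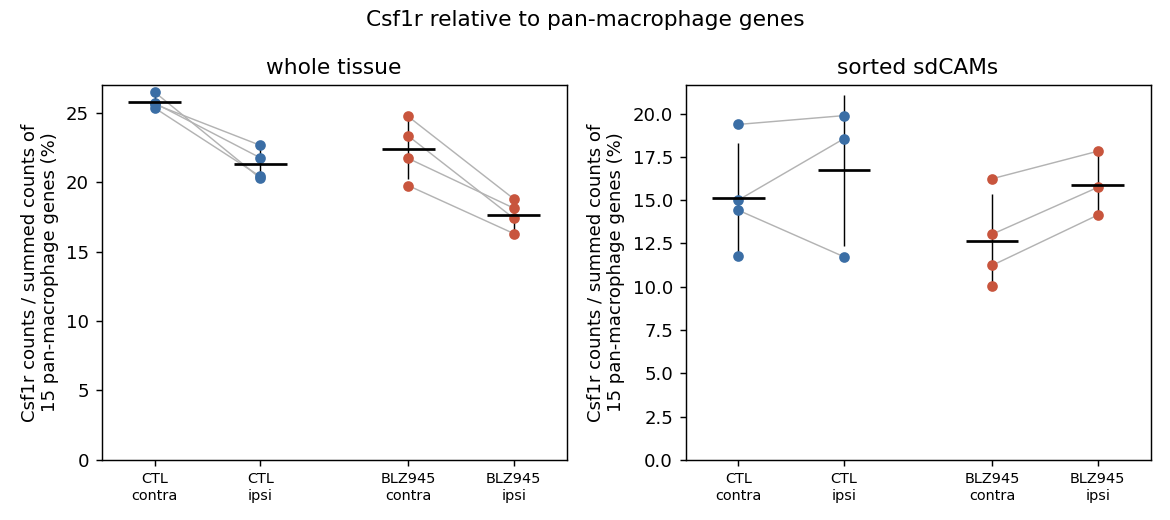
Csf1r counts as a percentage of the summed counts of 15 pan-macrophage genes in each library of tissue (left) and sdCAMs (right), with lines within a mouse, bars for the mean and thin lines for the SD. In tissue the share falls from contra to ipsi in all 8 mice, and BLZ945 points lie below CTL points in each hemisphere.

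Csf1, the ligand made by glia and vessels, was higher in stroke-bearing tissue. It stood at 27.98, 28.3, 23.8 and 30.0 CPM in contra and at 37.9, 43.3, 33.0 and 53.2 CPM in ipsi tissue of CTL mice A2, A3, A4 and B1. In BLZ945 mice C2, C3, C4 and D1 it was 31.3, 31.6, 25.96 and 32.5 CPM in contra and 52.7, 35.1, 44.4 and 60.6 CPM in ipsi. Every ipsi library of either treatment lay above every contra library, as 0.817% of 18968 genes did, and the rise within a mouse ran from 1.11-fold in C3 to 1.87-fold in D1. The averaged log2 fold change was 0.64 ± 0.11 (1.55-fold, adjusted p = 0.00279), in a comparison in which 3.05% of all genes were called, 2.53% higher and 0.517% lower. In BLZ945 mice, where 1.36% of genes were called, the difference was 0.67 ± 0.16 (adjusted p = 0.0445). In CTL mice, where 0.49% were called, it was 0.60 ± 0.16 (adjusted p = 0.169, and 0.0062 with the mouse as a block). The call in BLZ945 mice was lost without A2 (adjusted p = 0.0719), A3 (0.0806), C2 (0.275), C4 (0.18) or D1 (0.215), in a fit of the BLZ945 groups alone (0.1), and with the table's hemispheres for A3 (0.205). With the latter the averaged value was 0.48 (adjusted p = 0.207) and the hemispheres overlapped.

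Il34, the neuronal ligand, did not differ between hemispheres of the tissue beyond its spread. Contra levels were 40.3, 41.6, 65.8 and 53.1 CPM in CTL mice A2, A3, A4 and B1 and 43.6, 64.7, 56.5 and 37.5 CPM in BLZ945 mice C2, C3, C4 and D1. Ipsi levels, in the same order, were 42.7, 42.4, 62.7 and 34.8 CPM and 40.7, 59.5, 49.8 and 45.2 CPM. Mice differed more from each other than the hemispheres of a mouse did, with ipsi over contra ratios between 0.655 in B1 and 1.21 in D1. The averaged log2 fold change was -0.09 ± 0.14 (adjusted p = 0.862). Counted per length, Csf1 was 0.213 ± 0.057 of Il34 in CTL contra and 0.368 ± 0.154 in CTL ipsi tissue (SD, n = 4), and 0.235 ± 0.072 and 0.382 ± 0.132 in BLZ945 mice, so the ligands kept their order in every library, the highest ratio being 0.568.

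In sdCAMs Csf1 varied widely between mice. It was 54.4, 48.9, 39.6 and 61.9 CPM in contra of CTL mice A2, A3, A4 and B1, and 166, 53.3 and 215 CPM in ipsi of A2, A4 and B1. In BLZ945 mice it was 109.9, 27.3, 44.4 and 168 CPM in contra of C2, C3, C4 and D1, and 60.2, 90.6 and 150.5 CPM in ipsi of C3, C4 and D1. The ipsi value was the higher in 5 of 6 mice, D1 being the exception at 0.896-fold, and the groups overlapped. The averaged difference of 0.85 ± 0.38 was not called (adjusted p = 0.138), and with the mouse as a block it was (0.98, adjusted p = 0.0245). Without the contra libraries of C3 and C4 it was 0.52 ± 0.31 (adjusted p = 0.334).

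Il34 was scarce in sdCAMs, and its difference between hemispheres was not called. Contra libraries held 10.5, 22.5, 7.68 and 3.06 CPM in CTL mice A2, A3, A4 and B1 and 18.2, 17.8, 23.3 and 3.69 CPM in BLZ945 mice C2, C3, C4 and D1. Ipsi libraries held 0 CPM in A2, 8.82 in A4, 0.107 (1 count, under the floor) in B1, and 2.19, 3.14 and 1.85 CPM in C3, C4 and D1. The ipsi value was the lower in 5 of 6 mice, the exception being A4, and in BLZ945 mice the groups did not overlap, as 12.4% of genes did in that direction. The averaged log2 fold change of -2.30 ± 0.91 was not called (adjusted p = 0.0977). It was called with DESeq2 (-2.39, adjusted p = 0.0178) and without A4 (-5.07, adjusted p = 0.0028), a fitted value that leans on ipsi libraries at 0 and 1 counts and is no bound. Transcripts of endothelial, oligodendrocyte and astrocyte cells, given above, fell in the same libraries, and their part in the Il34 values was not tested.

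**Figure D5:**
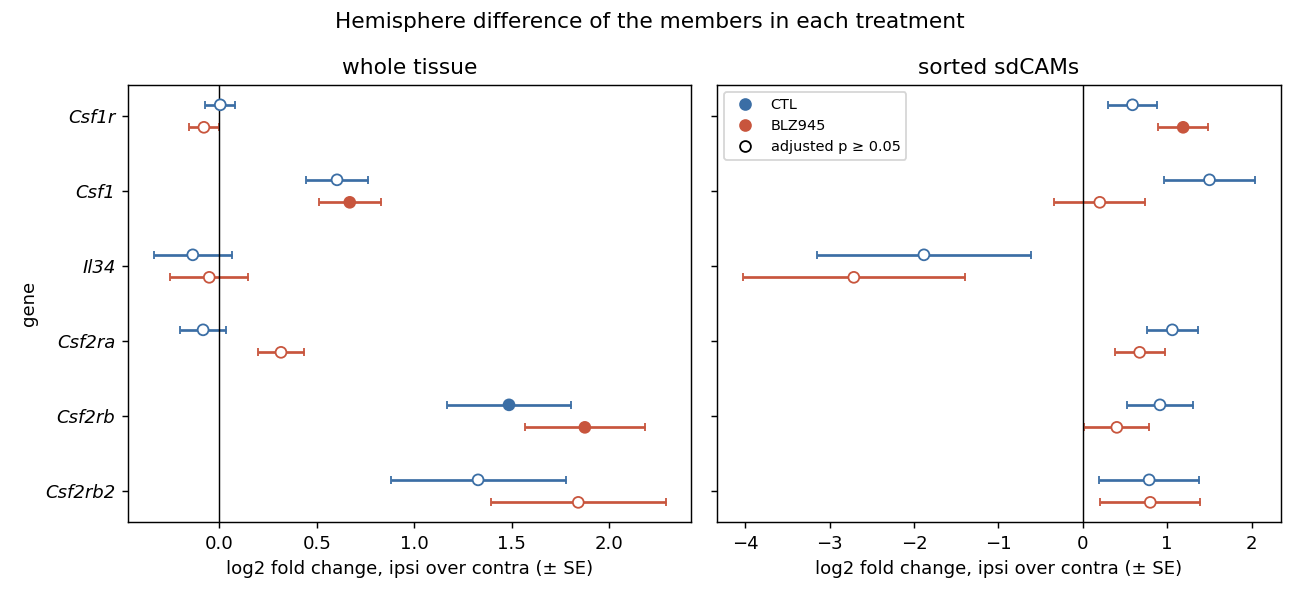
Log2 fold change of ipsi over contra (± SE) for 6 members in CTL (blue) and BLZ945 mice (red), in tissue (left) and sdCAMs (right, on a wider axis), with filled points at an edgeR adjusted p under 0.05. Csf2rb is called in tissue of both treatments, Csf1 in tissue and Csf1r in sdCAMs of BLZ945 mice.

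The β chain genes rose most in stroke-bearing tissue, from very low levels. Csf2rb was at 0.872, 1.27, 1.24 and 1.85 CPM in contra and 2.42, 4.29, 3.36 and 4.61 CPM in ipsi tissue of CTL mice A2, A3, A4 and B1. In BLZ945 mice C2, C3, C4 and D1 it was at 2.57, 1.78, 1.02 and 1.69 CPM in contra and at 8.12, 4.11, 6.20 and 7.39 CPM in ipsi. Ipsi lay above contra in all 8 mice, by 2.31-fold in C3 to 6.06-fold in C4, and the groups did not overlap within either treatment, as 2.45% of genes did in CTL and 4.2% in BLZ945 mice in that direction. Csf2rb was called on average (1.68 ± 0.22, 3.21-fold, adjusted p = 0.00023), in CTL (1.49 ± 0.32, adjusted p = 0.047) and in BLZ945 mice (1.87 ± 0.31, adjusted p = 0.00362). In CTL mice the call was lost without A2 (adjusted p = 0.141), A3 (0.362), A4 (0.185), B1 (0.229), C4 (0.0517) or D1 (0.0924), and in a fit of the CTL groups alone (0.108). With the table's hemispheres for A3, the average was 1.18 (adjusted p = 0.136), and the values were 0.49 in CTL (adjusted p = 1) and 1.87 in BLZ945 mice (adjusted p = 0.0942).

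Csf2rb2 followed the same course. Contra tissue held 1.19, 0.935, 1.44 and 0.555 CPM in A2, A3, A4 and B1 and 1.39, 1.46, 0.837 and 0.655 CPM in C2, C3, C4 and D1, and ipsi tissue, in the same order, 1.33, 3.52, 1.59 and 3.96 CPM and 4.35, 2.71, 2.00 and 6.49 CPM. It was higher in ipsi in all 8 mice, the CTL groups overlapped and the BLZ945 groups did not, as 4.2% of genes did in that direction. The averaged log2 fold change was 1.58 ± 0.32 (adjusted p = 0.00846), which was lost without B1 (1.34, adjusted p = 0.0531) and with the table's hemispheres for A3 (1.03, adjusted p = 0.319). In BLZ945 mice it was 1.84 ± 0.45 (adjusted p = 0.054, and 0.0226 with the mouse as a block). Both genes descend from a duplication, and 12.3% of the 50-base words of Csf2rb transcripts and 18.4% of those of Csf2rb2 occurred in both, so that reads of the 50-base libraries could be split or dropped between them. Their sum, fitted as 1 gene, rose by 1.64 ± 0.21 on average (adjusted p = 0.000207). Monocyte markers (2 of 6) and neutrophil markers (2 of 4 measured) were called higher in ipsi tissue too. Monocyte sums were 80.3 to 110.3 CPM in contra and 130.2 to 228 CPM in ipsi, and neutrophil sums at most 1.31 and 4.45 CPM. Fn1 and Vcan made up most of the monocyte sums, while Ccr2, Ly6c2, Plac8 and Chil3 had tissue group means of at most 1.44 CPM each. The part of these markers in the β chain values was not tested.

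Csf2ra, the GM-CSF-specific chain, differed little in tissue. In CTL mice A2, A3, A4 and B1 it was 20.9, 20.8, 22.9 and 18.2 CPM in contra and 19.7, 19.6, 20.7 and 18.2 CPM in ipsi. In BLZ945 mice C2, C3, C4 and D1 it was 13.1, 20.9, 18.2 and 17.3 CPM in contra and 21.1, 21.1, 21.5 and 22.97 CPM in ipsi. Ipsi was lower in all 4 CTL mice and higher in all 4 BLZ945 mice, and the difference between the responses was 0.40 ± 0.17 (edgeR adjusted p = 1). On average the hemispheres differed by 0.12 ± 0.08 (adjusted p = 0.609).

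Among the receptor chain genes in sdCAMs, Csf2ra was called higher in ipsi. Csf2ra stood at 72.3, 47.8, 67.9 and 85.5 CPM in contra of CTL mice A2, A3, A4 and B1, and at 162, 134 and 132 CPM in ipsi of A2, A4 and B1. In BLZ945 mice it stood at 158, 113, 56.2 and 157 CPM in contra of C2, C3, C4 and D1, and at 233, 173 and 174 CPM in ipsi of C3, C4 and D1. No ipsi library overlapped the contra libraries of its treatment, as 5.7% of genes in CTL and 7.44% in BLZ945 mice did, and the averaged difference was 0.87 ± 0.21 (1.82-fold, adjusted p = 0.0119). It was lost without C3 (0.77, adjusted p = 0.0579) and with the degraded libraries included (0.56, adjusted p = 0.561). In CTL mice it was 1.06 ± 0.30 (adjusted p = 0.0713) and in BLZ945 mice 0.67 ± 0.30 (adjusted p = 0.2), in comparisons in which 2.79% and 5.61% of genes were called. The difference in CTL mice was called without C4 (adjusted p = 0.0231), with DESeq2 (0.0162), in a fit of the CTL groups alone (0.0457) and without the contra libraries of C3 and C4 (0.0208).

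Csf2rb in sdCAMs was 92.5, 55.7, 57.5 and 108 CPM in contra of A2, A3, A4 and B1 and 159, 95.2 and 189 CPM in ipsi of A2, A4 and B1. In BLZ945 mice it was 116, 64.2, 48.3 and 163 CPM in contra of C2, C3, C4 and D1 and 99.7, 116 and 173 CPM in ipsi of C3, C4 and D1. It was higher in ipsi in all 6 mice, between 1.06-fold and 2.39-fold, while the groups overlapped. The averaged difference of 0.66 ± 0.27 was not called (adjusted p = 0.112), and with the mouse as a block it was (0.72, adjusted p = 0.0234). Csf2rb2 spanned 12.3 to 61.0 CPM in contra and 14.8 to 87.2 CPM in ipsi, was higher in ipsi in 4 of 6 mice and was not called (0.79 ± 0.42, adjusted p = 0.21).

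Csf3, the G-CSF gene, was at or near 0. In tissue it had 8 counts in ipsi B1, 2 in ipsi D1, 1 each in ipsi A3, ipsi A4 and contra D1, and 0 in the other 11 libraries. In sdCAMs it had 7, 5 and 4 counts in contra B1, C2 and A3, 1 in ipsi B1 and 0 in the other 10. Only 4 of 30 libraries exceeded the floor of 3 counts, so no fold change is given.

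Treatment was compared within each hemisphere to ask whether the axis kept a trace of the earlier inhibition. No member was called in tissue or sdCAMs, and edgeR called 0 of all genes (0.0%) in each of these 4 comparisons and in both interactions. At an unadjusted p under 0.05 there were 616 genes in contra and 858 in ipsi tissue, and 1133 and 1034 in sdCAMs. DESeq2 called 0 and 1 gene in tissue and 44 and 128 in sdCAMs. The nearest members were Csf2ra in contra sdCAMs, at 121 ± 48 CPM in BLZ945 against 68.4 ± 15.6 CPM in CTL mice (SD, n = 4 each), with a log2 fold change of 0.82 ± 0.28 (adjusted p = 0.759). Csf1r in the same libraries was 3106 ± 1152 against 4815 ± 1332 CPM (-0.63 ± 0.27, adjusted p = 0.759), and Csf2rb in ipsi tissue 6.46 ± 1.75 against 3.67 ± 0.99 CPM (0.82 ± 0.29, adjusted p = 0.958). Marker sums of contra sdCAMs differed by treatment too, though no marker was called. Medians in BLZ945 against CTL mice were 12830 against 176 CPM (choroid plexus) and 2090 against 273 CPM (neutrophil). They were 10910 against 17830 CPM for microglia and 26640 against 30320 CPM for pan-macrophage markers. The part of these cells in the Csf2ra and Csf1r values was not tested. Csf2ra did not overlap between treatments in ipsi sdCAMs (0.44 ± 0.32), as 3.1% of genes did in that direction, nor in ipsi tissue (0.15 ± 0.12), as 1.15% did. A missed threshold does not show that the treatments were alike, and the standard errors in sdCAMs left room for differences of about the sizes given.

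The rest of the pathway was counted from lists of known partners. Of 6 regulators of Csf1r transcription, 4 rose in ipsi tissue on average of treatments and none fell, with a list median of 0.77 beside -0.01 for all genes, of which 2.53% were called higher. They were Runx1 (1.21 ± 0.21, adjusted p = 0.00226), the PU.1 gene Spi1 (1.03 ± 0.15, adjusted p = 0.000453), Cebpb (0.98 ± 0.16, adjusted p = 0.00144) and Irf8 (0.55 ± 0.12, adjusted p = 0.0154). Csf1r itself was not called in tissue. Pan-macrophage (8 of 15), monocyte (2 of 6) and neutrophil markers (2 of 4) were called higher in the same comparison, and their part in the list values was not tested. Of 12 adaptors, kinases and brakes of CSF1R, 4 rose and none fell (list median 0.31). Among them were the Src-family kinase Lyn (0.59 ± 0.12, adjusted p = 0.012), the phosphatase SHP-1, encoded by Ptpn6 (0.89 ± 0.13, adjusted p = 0.000623), and the adaptor DAP12, encoded by Tyrobp (0.47 ± 0.07, adjusted p = 0.000842).

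Of 8 genes of the Jak-Stat5 signal and its feedback, Socs3, a cytokine-induced brake on Jak kinases, was the 1 that rose in tissue (2.68 ± 0.27, adjusted p = 1.4e-05), and the list median was 0.28. Of 5 genes of ligand and receptor shedding and co-receptors, the syndecan gene Sdc1 rose (1.41 ± 0.36, adjusted p = 0.0401). Of 6 partners of GM-CSF, IL-3, IL-5 and G-CSF, 3 were measured in tissue and none were called. The counts were 2 to 4 adaptors, kinases and brakes, 3 to 4 regulators, 1 Jak-Stat5 gene and 0 to 1 shedding gene when each mouse was left out in turn. Calls were lost for Lyn without A3, B1 or C2, for Irf8 without A3, B1 or C4, and for Sdc1 without A2, A3, B1, C2, C4 or D1. With the table's hemispheres for A3, none of these lists kept a called gene in tissue.

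In sdCAMs, 7 of the 12 adaptors, kinases and brakes rose in ipsi on average and none fell (list median 0.65 beside -0.16 for all genes, of which 4.98% were called higher and 11.2% lower). The 4 that changed most were Dok2 (1.03 ± 0.27, adjusted p = 0.0184) and Inpp5d, which encodes the lipid phosphatase SHIP1 (0.94 ± 0.19, adjusted p = 0.004), both brakes, with the phospholipase gene Plcg2 (0.96 ± 0.23, adjusted p = 0.0106) and Lyn (0.84 ± 0.15, adjusted p = 0.00219). Of the regulators of Csf1r transcription, Runx1 (0.85 ± 0.26, adjusted p = 0.0373) and Spi1 (0.70 ± 0.16, adjusted p = 0.00722) rose, with a list median of 0.56. The sheddases Adam17 (0.94 ± 0.18, adjusted p = 0.00285) and Adam10 (0.75 ± 0.14, adjusted p = 0.00197) rose, and Ptprz1, a glial phosphatase that binds IL-34, fell (-2.42 ± 0.79, adjusted p = 0.0481). In the same comparison 13 of 15 pan-macrophage genes (median 0.665) and 8 of 10 sdCAM markers (median 0.99) were called higher. Of the astrocyte markers, 5 of 6 were called lower (median -1.99). The part of such shifts in the list values was not tested. None of the 8 Jak-Stat5 genes and none of the 5 measured cytokine partners were called in the average, although Jak2 rose in CTL mice (1.18 ± 0.28, adjusted p = 0.0363). When each mouse was left out in turn, 5 to 7 adaptors, kinases and brakes, 1 to 3 regulators and both sheddases were called, and calls were lost for Dok2 without C4, for Runx1 without A3, A4, C2, C3 or C4, and for Ptprz1 without any mouse but D1. Without the contra libraries of C3 and C4, 5 adaptors, kinases and brakes, Spi1 and both sheddases were still called, and with the degraded libraries included none were.

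The genes most like each member were taken by Pearson correlation of log2(CPM + 1) over libraries, among 10227 genes in tissue and 9562 in sdCAMs with a mean of at least 10 CPM. Libraries of a mouse and of a hemisphere share their source, so these values are descriptions. In tissue Csf1 went with Cdh5 and Vwa1 (r = 0.938 each), Tgfbi (0.935), Igfbp7 (0.932) and Il4ra (0.931) over 16 libraries, of which Cdh5 encodes the cadherin of endothelial junctions. Il34 went with Rab40b (r = 0.945), Wdr17 (0.943), Gas7 (0.937) and Cdk17 (0.93). Csf1r, which hardly varied in tissue, had Naa38 (r = 0.805), P2rx7 (0.79), Atat1 (0.767), Lrp4 (0.761) and Vcan (0.734) nearest.

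In the 14 sdCAM libraries Csf1r went with Cmtm6 (r = 0.981), Pla2g15 (0.974), Sirpa (0.972) and Arhgap45 (0.97), of which Sirpa encodes a macrophage receptor and Pla2g15 a lysosomal enzyme. Csf2ra went with H2-DMb1 (r = 0.927), Mpeg1 (0.925), Cxcl16 (0.924), Nceh1 (0.92) and Ms4a6c (0.92). Csf2rb went with Cd14 (r = 0.935), Eif3b (0.928), Actr2 (0.928), Mvp (0.919) and Cmip (0.918). Csf2rb2 went with Ccl9 (r = 0.914), Cd14 (0.892), Cpsf6 (0.891), Ets2 (0.887) and Marcksl1 (0.886), so the endotoxin co-receptor gene Cd14 stood near both β chain genes.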

How the data were processed

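Per the labels and the study's methods, the authors sequenced 50-base single reads, aligned them with STAR 2.7.11a, counted them on genes with featureCounts 2.0.8 and deposited raw counts of 33280 genes. The genome build is ambiguous in the sources, so no coordinates are given for the counts. Groups came from the labels, which place all libraries in 1 batch. The members, gene lists and tests were chosen with earlier results of these data known.

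A minimum sum of 0.5 counts per library set which genes entered the fit, which all 7 members passed. The model had a mean per group of treatment and hemisphere and was fitted with edgeR 4.0.16 (quasi-likelihood test, TMM, two-sided). Calls used a Benjamini-Hochberg adjusted p under 0.05 over all genes. Tissue and sdCAMs were fitted separately, and a joint fit of 30 libraries compared them. Simulated counts without a mouse effect were used to check the averaged hemisphere comparisons and that of contra sdCAMs with contra tissue. The other comparisons and the exact tests were not checked in this way. The Csf1r share used exact tests (scipy 1.17.1), and exon lengths and transcripts came from GENCODE M21.

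Named were all members, up to 4 called genes with the largest change per pathway list, and the 5 most similar genes, apart from a few that are not reported here. Replicates are separate mice. The 2 hemispheres of a mouse came from the same animal, and libraries of a mouse deviated together, with a median correlation of deviations of 0.429 over 8 tissue pairs and 0.154 over 6 sdCAM pairs (-0.128 and -0.055 between mice). The mouse was therefore used as a block in an alternative. Other alternatives were DESeq2 1.42.0, other size factors and filters, fits of the 2 groups alone, all 16 sdCAM libraries, the table's hemispheres for A3, the summed β chain genes and leaving out each mouse. Removal of libraries with choroid plexus markers above 1% and the table's hemispheres combined with the block were added after seeing the data. Totals per library limit the precision and cover counting error only.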

Additional observations from a re-analysis of the deposited data

Results flagged for a closer look

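The sign of the Csf2ra difference was opposite in tissue of the 2 treatments, lower in ipsi in all 4 CTL mice and higher in all 4 BLZ945 mice. The difference between the responses was 0.40 ± 0.17 on the log2 scale, with an edgeR adjusted p of 1. Ratios of ipsi over contra were between 0.904 and 0.999 in CTL and between 1.007 and 1.611 in BLZ945 mice. The hemispheres differed by -0.08 ± 0.12 in CTL and 0.32 ± 0.12 in BLZ945 mice, and neither was called.

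Csf3 in ipsi tissue of CTL mouse B1, at 0.659 CPM (8 counts), stood apart from the other 3 mice, of which the nearest was at 0.0884 CPM. Csf3 in contra sdCAMs of BLZ945 mouse C2 was at 0.633 CPM (5 counts) with the other 3 mice at 0. These were the 2 flags among 39 groups of 4 looked at. Both rest on a gene at or near 0 counts. With the other 3 mice at 0, any count in the remaining mouse is flagged. The number of flags is therefore not set against chance, and nothing is read into them.

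The degraded ipsi sdCAM libraries, which were left out of the main fits, still held transcripts of the axis above the floor of 3 counts. Csf1r had 41 counts in A3 and 73 counts in C2 (758 and 1324 CPM by library size), Csf1 had 4 counts in A3 and Csf2rb 4 counts in C2.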

How the results depend on the processing

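Under alternatives other than leaving out a mouse, called hemisphere genes in tissue numbered 93 (CTL), 258 (BLZ945) and 578 (average), against 162, 479 and 886 with DESeq2, 250, 785 and 1344 with the mouse as a replicate block, 0, 6 and 1 with the table's hemispheres for A3, 0 (CTL) and 253 (average) with these and the block together, and 170 in a fit of the BLZ945 groups alone. In sdCAMs, 510, 1027 and 2966 genes compared with 205, 428 and 1186 with all 16 libraries, 1823 (CTL) and 2518 (BLZ945) with DESeq2, 293 (CTL) and 1931 (average) with the block, and 234 (BLZ945) and 1658 (average) without the libraries rich in choroid plexus markers. The averaged sdCAM split was 912 higher and 2054 lower, and 394 and 2384 with library size alone. For treatment, DESeq2 called 1 gene in ipsi tissue, 44 (contra) and 128 (ipsi) in sdCAMs and 48 for the sdCAM interaction, and no filter gave 1 in ipsi sdCAMs. The block changed the calls of Csf1 and Csf2rb2 in tissue and of Csf1 and Csf2rb in sdCAMs given in the report, that of Csf3 between sdCAMs and tissue, and no other member's.

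Leaving out each mouse gave 24 to 96 (CTL), 81 to 261 (BLZ945) and 319 to 564 (average) hemisphere genes in tissue, and 139 to 612, 270 to 1220 and 1855 to 2612 in sdCAMs. It gave 0 to 4 (contra) and 0 to 3 (ipsi) treatment genes in tissue, 0 to 7 in ipsi sdCAMs and 0 to 1 for the sdCAM interaction.

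For the Csf1r share in tissue, treatment differed by -0.117 in contra (exact permutation test, p = 0.257) with the mean of log2 counts and by 0.0919 (contra) and 0.113 (ipsi) relative to microglia genes, and by -0.113 in contra with the table's A3. The hemispheres differed by -0.0876 relative to microglia genes and -0.213 with the table's A3, and by -0.0613 relative to sdCAM markers in sdCAMs. Without 1 mouse the treatment values were -0.259 to -0.151 (contra) and -0.3 to -0.232 (ipsi) in tissue, where 3 against 4 mice cannot go below p = 0.0571 in an exact permutation test, and -0.279 to 0.102 in ipsi sdCAMs.

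Signs turned only for members that were not called. With library size alone these were Il34 in BLZ945 tissue (0.004), Csf1r in tissue on average (0.008) and Il34 by treatment in contra tissue (-0.01). With the table's A3 they were Csf1r in CTL tissue (-0.034, also with the block) and, by treatment in contra tissue, Csf1 (-0.046), Csf2rb (-0.236) and Csf2rb2 (-0.637). With the replicate block they were the sdCAM interactions of Csf2ra (0.014) and Il34 (1.43). With all 16 libraries they were Csf1 in BLZ945 sdCAMs (-0.017), Csf1r by treatment in ipsi sdCAMs (0.01) and the Csf2rb2 interaction (-0.039). Without the libraries rich in choroid plexus markers they were Csf1 (-0.454) and Csf2rb (-0.096) in BLZ945 sdCAMs and the Csf2rb2 interaction (-0.56). Without 1 mouse in tissue, Csf1r ran from -0.019 to 0.052 in CTL, -0.069 to 0.001 on average and -0.079 to 0.013 by treatment in contra. Il34 ran from -0.198 to 0.003 in CTL, -0.133 to 0.005 in BLZ945 mice, -0.12 to 0.167 (contra) and -0.023 to 0.278 (ipsi) by treatment and -0.054 to 0.147 for the interaction. Csf2rb2 ran from -0.132 to 0.253 by treatment in contra and -0.034 to 0.991 for the interaction, and the Csf1 interaction from -0.034 to 0.194. In sdCAMs by treatment, Csf1r (ipsi) ran from -0.193 to 0.118, Csf2rb from -0.04 to 0.546 (contra) and -0.457 to 0.026 (ipsi) and Il34 (ipsi) from -0.903 to 5.1, and interactions from -0.375 to 0.742 (Csf2rb2) and -1.48 to 4.71 (Il34). The cause was not tested.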
